A study of Mus musculus with 9 samples.

Results

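The mRNAs of 7 connexins were measured among 22092 genes in ribosome-bound RNA of mouse astrocytes. They were listed by symbol, with no threshold on their values, as Gja1 (connexin 43, Cx43), Gjb6 (Cx30) and Gjb2 (Cx26), which are known from astrocytes or from the meninges, Gja4 (Cx37), Gja5 (Cx40) and Gjc1 (Cx45), which are known from the vessel wall, and Gjd2 (Cx36), the main connexin of neurons. All mice were 2 months old, of the line named Aldh1L1 JD130, and carried the transgene Aldh1L1-L10aGFP, in which the promoter of the astrocyte gene Aldh1l1 drives the ribosomal protein L10a fused to GFP. In translating ribosome affinity purification (TRAP), tagged ribosomes are precipitated with GFP antibodies together with the mRNAs they hold. The whole astrocyte TRAP group had 3 libraries, each from 1 brain without its choroid plexus. The endfeet TRAP group had 6 libraries, each from purified brain vessels pooled from 8 mice. There was no group of mice without the transgene, so RNA carried along without a tagged ribosome had no control of its own. Both groups were compared to ask which ribosome-bound mRNAs lie at the vascular surface of astrocytes.

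Connexins are membrane proteins that assemble into hexameric channels, and a pair of such channels on touching cells forms a gap junction pore for ions and small metabolites. Cx43 and Cx30 couple astrocytes into networks and gather where endfeet meet the vessel wall, while Cx37 and Cx40 couple endothelial cells and Cx45 couples mural cells. In the brain, Cx26 is best known from the leptomeninges, and its place in parenchymal astrocytes is disputed.

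Gene totals were 35984144 to 43521208 counts in whole astrocyte TRAP and 2319495 to 13450588 in endfeet TRAP, where library 6 was the smallest. Values below are CPM, that is counts per 1000000 counts of the library after scaling by the trimmed mean of M values (TMM), and a floor of 3 counts was 0.0658 to 0.0811 CPM in whole astrocyte libraries and 0.197 to 1.37 CPM in endfeet libraries. The RNA was amplified before sequencing, so reads are no independent molecules and floors hold counting error alone. Numbering of the deposited libraries puts endfeet libraries 1 to 3 in an earlier series, and endfeet libraries 4 to 6 with all whole astrocyte libraries in a later one, and what the numbers stand for is not given in the sources used here. The replicates differed far more in endfeet TRAP, where the common dispersion of counts was 0.725 against 0.0142 in whole astrocyte TRAP. Of 13 astrocyte markers, 5 were lower and 1 was higher in endfeet TRAP, and their summed level was 12605 to 34831 CPM against 37817 to 42118 CPM. Markers of other cells were present in endfeet TRAP. The 12 endothelial markers summed to 3375 to 5302 CPM against 6.96 to 7.73 CPM, with Ly6c1 at 0 in all whole astrocyte libraries, and the 8 pericyte markers to 2860 to 7869 CPM against 33.8 to 41.5 CPM. Smooth muscle, with 7 markers, reached 1061 to 1952 CPM against 31.4 to 43.9 CPM, and 11 fibroblast and meningeal markers reached 5779 to 20700.3 CPM against 804 to 1470 CPM. The sum of the 8 ependymal and choroid plexus markers was 6693 to 88351 CPM against 70.7 to 1469 CPM. This sum was highest in endfeet library 1 and was mostly a single gene. Ttr made up 97.8% of the mean endfeet sum and 92.6% of the mean whole astrocyte sum. Of the 8 markers 6 were called higher, and Otx2 and Ccdc153 were not called. Mean Otx2 was 34.8 CPM against 33.5 CPM, and Ccdc153 was lowest in endfeet library 1, at 0.938 CPM. Microglia and macrophages, with 10 markers, gave 234 to 385 CPM against 21.5 to 25.8 CPM. Summed neuronal and oligodendrocyte markers lay lower in endfeet TRAP, where 9 neuronal markers gave 1082 to 2083 CPM against 3709 to 4273 CPM and 8 oligodendrocyte markers gave 250.2 to 567 CPM against 680.4 to 688 CPM.

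All 7 connexins passed the filter on low counts. edgeR's quasi-likelihood test, fitted on 14427 genes with Benjamini-Hochberg adjusted p-values and a threshold of 0.05, called 4 of them higher in endfeet TRAP (Gjb2, Gja4, Gja5 and Gjc1) and 1 lower (Gjb6), while Gja1 and Gjd2 were not called. Gja4 had at most 8 and Gja5 at most 12 counts in a whole astrocyte library. Both genes passed the filter through their endfeet counts and could hardly have been called lower. Among all genes tested, 20.7% were called higher and 13.9% lower, 34.6% in all. The median log2 fold change of the 7 was 2.07 beside 0.10 over all genes tested. All 6 endfeet libraries were above all whole astrocyte libraries for 3 connexins (Gjb2, Gja4 and Gjc1) and below them for 1 (Gjb6), against 18.9% and 23.8% of all genes tested. Within the later series alone, the log2 fold changes in edgeR were -1.56 for Gjb6, 2.21 for Gjb2, 9.24 for Gja4 and 4.96 for Gjc1, with adjusted p-values of 0.00568, 0.00587, 0.00142 and 1.6e-04, and Gja5 was removed there by the filter. Gja1 was at 0.15 and Gjd2 at 1.17 in that series, both still uncalled, and the earlier series holds endfeet libraries only.

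**Figure D1:**
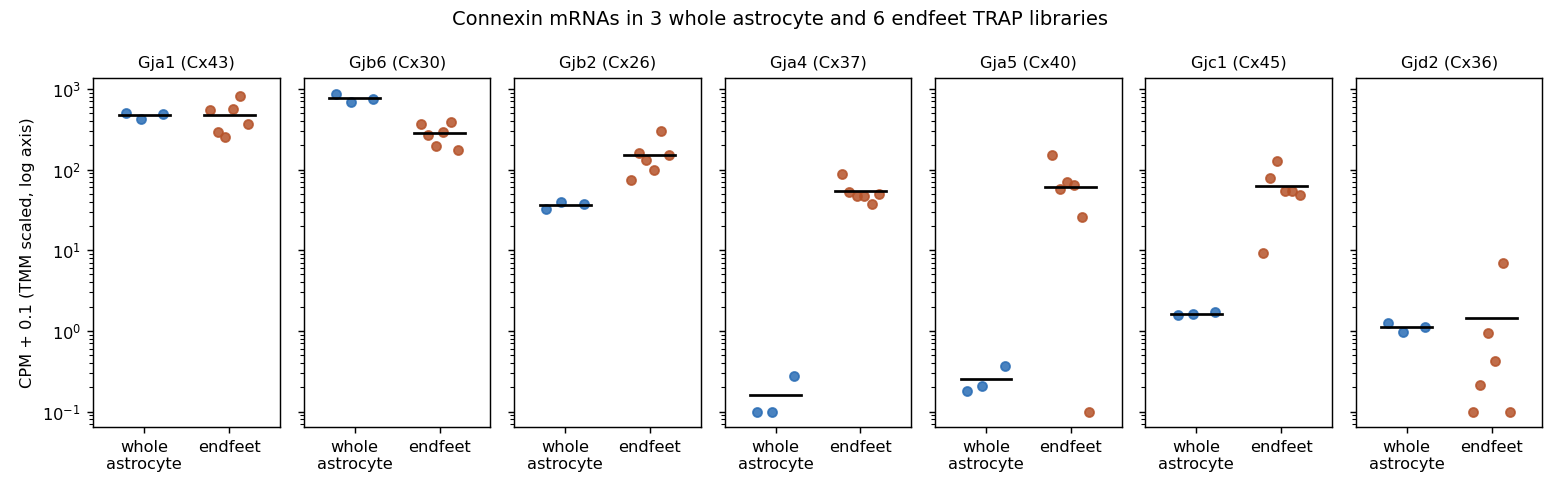
Level of each connexin mRNA in every library, as TMM-scaled CPM with 0.1 added, on a log axis shared by the panels. Points are libraries (3 whole astrocyte in blue, 6 endfeet in orange) and black lines are group means. Gjb6 points of endfeet TRAP lie below those of whole astrocyte TRAP, Gja1 points overlap, and Gja4, Gjc1 and Gjb2 points lie above.

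**Figure D2:**
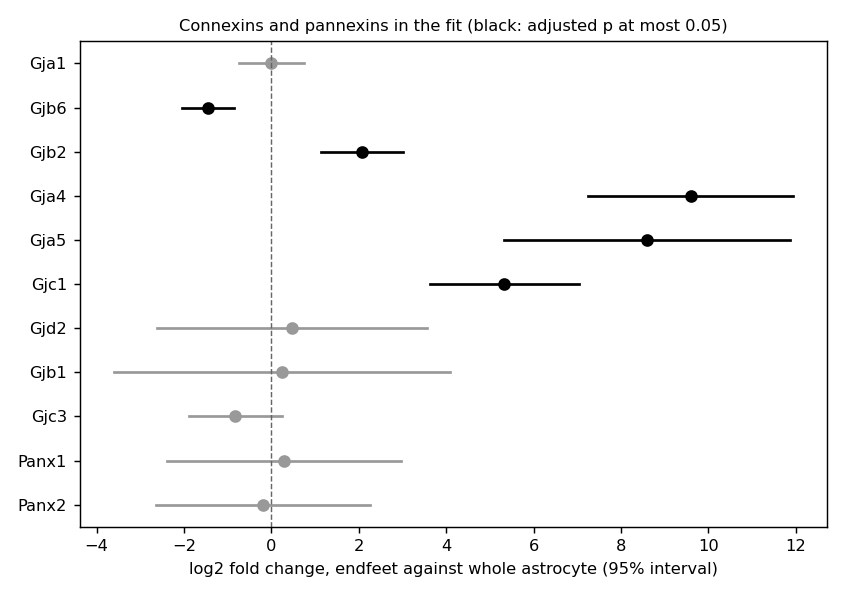
Log2 fold change of endfeet TRAP against whole astrocyte TRAP for the 7 connexins, 2 further connexins and 2 pannexins in the fit, with the 95% confidence interval from edgeR. Black marks the 5 genes with an adjusted p of at most 0.05, of which Gjb6 alone lies to the left of 0.

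Of the genes described, Gjb2 and Gjb6 are neighbours. In the mm10 build, Gjb2 lies on chromosome 14 from 57098600 to 57104702 and Gjb6 from 57123303 to 57133611, both on the minus strand and 18600 bases apart, and the lens connexin gene Gja3 lies 40499 bases beyond Gjb2. Gja1 lies on chromosome 10 (56377330 to 56402513, plus strand), Gja4 on chromosome 4 (127311421 to 127314039, minus strand), Gja5 on chromosome 3 (96904693 to 97077416, plus strand), Gjc1 on chromosome 11 (102799579 to 102819700, minus strand) and Gjd2 on chromosome 2 (114009601 to 114013619, minus strand). The coding sequence of the transcript counted lay in 1 exon for 6 of the 7 genes and in 2 exons for Gjd2. It ran from 226 codons in Gjb2 and 261 in Gjb6 to 382 in Gja1 and 396 in Gjc1.

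RefSeq promoter windows of build GRCm38.p6 were matched for 6 of the 7 genes, all but Gjc1. The start meant here is the RefSeq start. For Gja5 it lies inside the gene span given above, near the start of the counted transcript at 97032416. The 250 bases before the start of 4 genes are printed 5′ to 3′ because they are the neighbours that differed in opposite directions (Gjb2 and Gjb6) and the endothelial pair that was higher together (Gja4 and Gja5). Capitals mark the GC box, searched as GGGCGG on both strands.
Gjb2 (chr14:57104703-57104952, minus strand): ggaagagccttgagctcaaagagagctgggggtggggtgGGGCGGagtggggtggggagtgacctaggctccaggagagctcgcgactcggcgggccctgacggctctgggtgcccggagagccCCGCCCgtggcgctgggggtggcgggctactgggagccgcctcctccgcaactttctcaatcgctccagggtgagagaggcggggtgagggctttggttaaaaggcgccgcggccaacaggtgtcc
Gjb6 (chr14:57133612-57133861, minus strand): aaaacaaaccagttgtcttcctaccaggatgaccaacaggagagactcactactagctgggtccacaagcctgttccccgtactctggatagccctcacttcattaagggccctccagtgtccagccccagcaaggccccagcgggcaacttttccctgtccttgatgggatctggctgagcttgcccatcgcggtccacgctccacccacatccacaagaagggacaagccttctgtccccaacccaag
Gja4 (chr4:127314040-127314289, minus strand): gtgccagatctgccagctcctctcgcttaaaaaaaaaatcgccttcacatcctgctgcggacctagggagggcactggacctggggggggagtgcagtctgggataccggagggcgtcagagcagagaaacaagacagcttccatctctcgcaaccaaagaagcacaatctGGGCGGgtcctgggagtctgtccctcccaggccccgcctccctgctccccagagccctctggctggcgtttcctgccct
Gja5 (chr3:97032152-97032401, plus strand): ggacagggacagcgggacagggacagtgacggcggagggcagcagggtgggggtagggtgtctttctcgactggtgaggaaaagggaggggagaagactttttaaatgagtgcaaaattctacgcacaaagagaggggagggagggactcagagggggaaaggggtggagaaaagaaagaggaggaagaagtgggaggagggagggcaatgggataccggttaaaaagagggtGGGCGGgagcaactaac
The Gjb2 window held 2 GC boxes, the Gja4 and Gja5 windows 1 each, and the Gjb6 window none. Of the windows not printed, that of Gjd2 held 1 and that of Gja1 none. Over the full window of 300 bases, from 250 before to 50 after the start, 35.7% of 32851 promoters held this motif. The share of G and C in the full window was 70.0% for Gjb2, 62.0% for Gja4, 57.3% for Gjb6, 55.7% for Gja5 and 47.7% for Gja1, beside a median of 52.7% over all promoters. The TATA box (TATAAA, in 13.6% of promoters) was in no window of the 6 genes. The AP-1 site TGACTCA (5.2% of promoters) and the GATA site AGATAA (11.2%), each searched on both strands, were found once each in the Gja1 window and in no other of the 6. In these windows no match overlapped another. A match is a run of letters and no measurement of binding.

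Gja1 encodes Cx43, the most abundant gap junction protein of adult astrocytes. Its level was 504, 424 and 485 CPM in the whole astrocyte libraries, and 250, 453 and 804 CPM as lowest, median and highest of the endfeet libraries. Endfeet libraries 1, 4 and 5 were above all whole astrocyte libraries and endfeet libraries 2, 3 and 6 were below them. The means were 468 ± 208 CPM (SD, n = 6) and 471 ± 41.9 CPM (SD, n = 3), and the log2 fold change was -0.01 (SE 0.344, 95% confidence interval -0.75 to 0.74, adjusted p = 0.989 in edgeR). The interval leaves room for changes of that size in both directions, so equal levels were not shown. The coefficient of variation was 44.4% among endfeet libraries and 8.91% among whole astrocyte libraries.

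Gjb6 encodes Cx30, the other main connexin of mature astrocytes, which is largely astroglial within the brain parenchyma. It was at 856, 693 and 746 CPM in whole astrocyte TRAP, while the endfeet libraries were at 175 (lowest), 280.4 (median) and 384 CPM (highest). Every endfeet library was below every whole astrocyte library. The mean was 281 ± 86.9 CPM (SD, n = 6) against 765 ± 82.9 CPM (SD, n = 3), which is 2.72-fold lower in the fit (log2 fold change -1.44, SE 0.276, 95% confidence interval -2.04 to -0.85, adjusted p = 0.00133 in edgeR). Over the alternative settings other than leaving out a library the log2 fold change was -1.59 to -1.42. Among all genes by mean CPM, Gjb6 ranked 121 in whole astrocyte TRAP against 603 in endfeet TRAP, while Gja1 ranked 272 against 269. A shorter transcript of Gjb6 of 887 bases carried 17.9% to 21.4% of the count of the main one in whole astrocyte libraries and 2.87% to 19.6% in endfeet libraries, with the lowest share, from 11 counts, in endfeet library 6.

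Gjb2, the neighbour of Gjb6, encodes Cx26, which is mutated in common inherited deafness. Its levels in whole astrocyte TRAP were 31.8, 39.7 and 37.4 CPM. In endfeet TRAP they were 73.0 (lowest), 141 (median) and 303 CPM (highest), so that each endfeet library exceeded each whole astrocyte library. The mean was 153 ± 80.8 CPM (SD, n = 6) against 36.3 ± 4.06 CPM (SD, n = 3), a 4.20-fold difference (log2 fold change 2.07, SE 0.438, 95% confidence interval 1.13 to 3.02, adjusted p = 0.00267 in edgeR). Library 1 was the lowest and library 5 the highest of the endfeet libraries. The summed level of the 11 fibroblast and meningeal markers was higher in endfeet TRAP as well, with Dcn, a proteoglycan gene of fibroblasts, at 301 ± 85.7 CPM (SD, n = 6) against 10.2 ± 2.46 CPM (SD, n = 3). Per 1000 CPM of that list, Gjb2 was at 3.53 to 24.2 CPM in endfeet TRAP and 25.4 to 39.6 CPM in whole astrocyte TRAP, below it in every library, and per 1000 CPM of the astrocyte list it was at 2.19 to 10.3 CPM against 0.756 to 1.05 CPM, above it in every library. Ptgds made up 59.4% of the mean endfeet sum of the fibroblast and meningeal markers and 88.0% of the mean whole astrocyte sum. Its log2 fold change was 2.64, beside a median of 5.08 over that list, so the scale largely follows this gene. The part of the meningeal RNA in the Gjb2 difference was not tested. In bulk RNA like this, fewer cells of a type and less RNA per cell cannot be told apart.

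Gja1, Gjb6 and Gjb2 were also compared with each other, within each library as the log2 ratio of counts per kb of transcript with 0.5 counts added. Such a ratio does not depend on the scaling between libraries. Gjb6 stood to Gja1 as 2.48, 2.39 and 2.24 to 1 in the whole astrocyte libraries. In endfeet TRAP this ratio was 0.696 (lowest), 0.877 (median) and 1.32 (highest), and the groups did not overlap. The difference of the log2 ratios was -1.38, a 2.60-fold lower ratio, with p = 0.0119 (two-sided exact permutation test over the 84 ways to assign 9 libraries, the smallest p this design can give; 0.0119 also after Benjamini-Hochberg adjustment over 6 ratios). Gjb2 to Gja1 went from 0.0807, 0.0985 and 0.120 in whole astrocyte TRAP to 0.171 (lowest), 0.509 (median) and 0.698 (highest) in endfeet TRAP, a log2 difference of 2.05. Gjb2 to Gjb6 went from 0.0326 to 0.0502 in whole astrocyte TRAP to 0.172 to 0.761 in endfeet TRAP, a log2 difference of 3.43 or 10.8-fold. Both ratios had groups that did not overlap and the same exact permutation p of 0.0119 before and after adjustment.

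The ratios of Gja1 to Aqp4 and Slc1a2 and of Gjb6 to Slc1a2 were lower in endfeet TRAP, where the mean levels of Aqp4 and Slc1a2 were higher. Aqp4, the water channel of the endfoot membrane, had 1592 ± 684 CPM (SD, n = 6) in endfeet TRAP against 499 ± 87.0 CPM (SD, n = 3), and its log2 fold change was 1.67 ± 0.406 (SE), with an adjusted p of 0.00635 in edgeR. Slc1a2, the glutamate transporter GLT-1, was at 15308 ± 6417 CPM (SD, n = 6) and 8043 ± 1018 CPM (SD, n = 3), and its log2 fold change of 0.93 ± 0.387 (SE), with an adjusted p of 0.080 in edgeR, did not pass the threshold. Gja1 per Aqp4 was at 0.284 (lowest), 0.479 (median) and 0.918 (highest) in endfeet libraries and at 1.39, 1.64 and 1.67 in whole astrocyte libraries, a log2 difference of -1.66. Gja1 per Slc1a2 was at 0.0903, 0.117 and 0.146 (lowest, median and highest) against 0.214, 0.231 and 0.220, a log2 difference of -0.92, and Gjb6 per Slc1a2 was at 0.0639, 0.0985 and 0.166 against 0.530, 0.552 and 0.494, a log2 difference of -2.30. The groups did not overlap in any of these 3 ratios, and each had p = 0.0119 before and after adjustment (two-sided exact permutation test). Among all genes tested, 42.7% had groups that did not overlap, and no such share was computed for ratios. Gjb6, Gjb2 and Aqp4 were called on these same libraries and the 6 ratios share genes, so their p-values are not separate results. Within the later series of library numbers the 6 ratios kept their directions, but 3 against 3 libraries cannot give a p below 0.10.

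**Figure D3:**
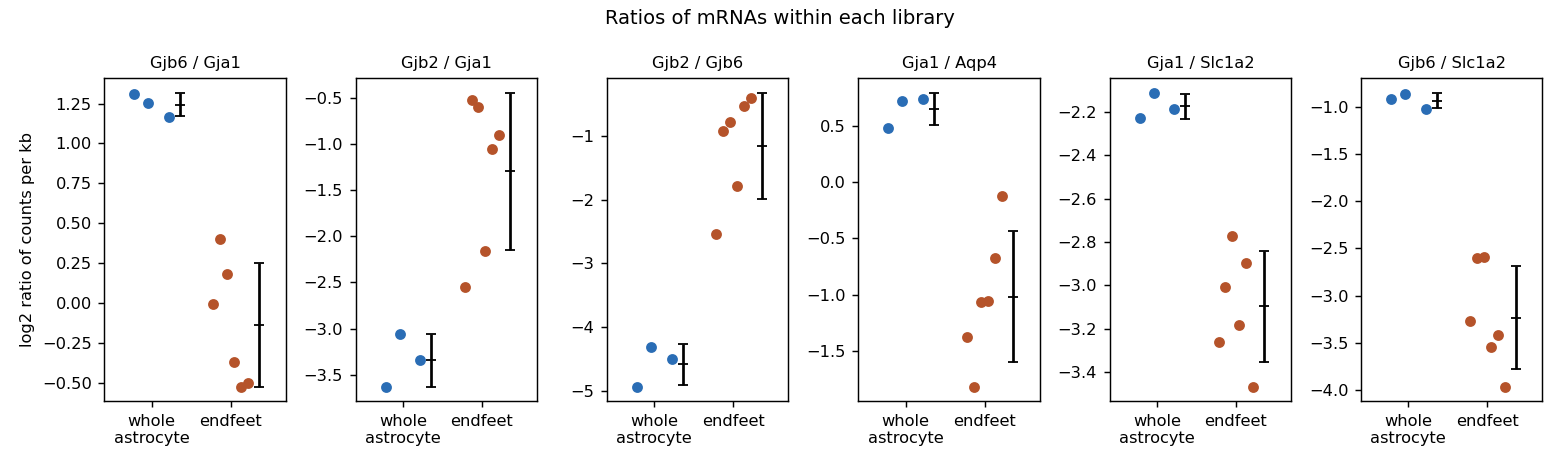
Ratios of counts per kb within each library, on a log2 scale with its own range in each panel. Blue points are the 3 whole astrocyte and orange points the 6 endfeet libraries, and black marks are the mean ± SD. In each of the 6 panels the groups do not overlap, with the endfeet points higher for both Gjb2 ratios and lower for the other 4.

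Against the sum of 13 astrocyte markers the order changed for Gja1. Per 1000 CPM of these markers, Gja1 was at 12, 11.2 and 12.5 CPM in whole astrocyte TRAP, while the endfeet libraries were at 16.3 (lowest), 18.6 (median) and 23.1 CPM (highest), so all endfeet libraries were above. Its coefficient of variation among endfeet libraries was 12.7% on this scale, beside 44.4% for Gja1 as CPM and 37.9% for the marker sum. Gjb6 was at 20.3, 18.3 and 19.2 CPM per 1000 in whole astrocyte TRAP, while the endfeet libraries were at 8.22 (lowest), 11.1 (median) and 16.6 CPM (highest), and every endfeet library was below. The marker sum was not made of the same genes in both groups, since Slc1a2 gave 62.3% of it in endfeet TRAP, and Glul and Aldoc gave 30.8% and 27.5% of it in whole astrocyte TRAP. Gja1 was thus higher in endfeet TRAP against the marker sum and lower against Slc1a2 and Aqp4.

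**Figure D4:**
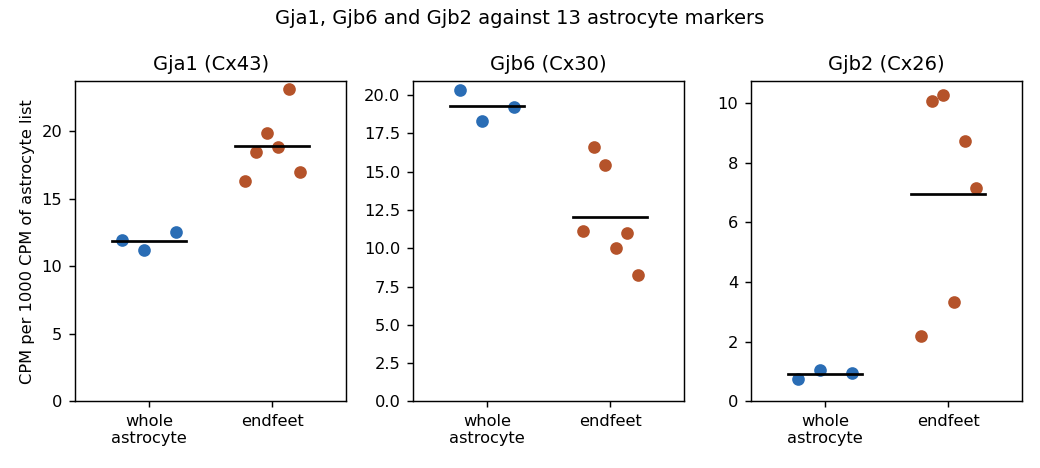
Gja1, Gjb6 and Gjb2 in CPM per 1000 CPM of the summed 13 astrocyte markers, by library, with axes starting at 0. Blue points are the 3 whole astrocyte and orange points the 6 endfeet libraries, and lines are means. The endfeet points lie above for Gja1 (16.3 to 23.1 against 11.2 to 12.5) and Gjb2, and below for Gjb6.

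Gja4 and Gja5 encode Cx37 and Cx40, the connexins of arterial endothelium, which carry dilating signals along the vessel. Gja4 had 0, 0 and 8 counts in the whole astrocyte libraries, which is 0, 0 and 0.176 CPM. Its endfeet levels were 36.9 (lowest), 48.4 (median) and 87.6 CPM (highest), and even the lowest was 210.4 times the highest whole astrocyte value. The mean of 53.5 ± 17.6 CPM (SD, n = 6) was 659 times the highest floor of a whole astrocyte library. The log2 fold change in the fit was 9.60 (SE 1.09, adjusted p = 2.46e-05 in edgeR), a value that rests on the 8 counts of whole astrocyte library 3 and was 12.78 without it.

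Gja5 had 3, 4 and 12 counts in the whole astrocyte libraries, or 0.0811, 0.106 and 0.263 CPM. In endfeet TRAP it was at 0 (lowest), 60.6 (median) and 151 CPM (highest). Of the 6 endfeet libraries 5 were above all whole astrocyte libraries, at 25.4 to 151 CPM, and library 6 had no count, which allows up to 1.37 CPM at its depth. Gja4 had 109 counts in that same library. The Gja5 mean was 61.5 ± 51.5 CPM (SD, n = 6) against 0.150 ± 0.0989 CPM (SD, n = 3), and the fit gave a log2 fold change of 8.60 (SE 1.51, 95% confidence interval 5.33 to 11.87, adjusted p = 7.53e-04 in edgeR). Both genes were highest in endfeet library 1 and, among the libraries with counts of Gja5, lowest in endfeet library 5.

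The endothelial markers were higher in endfeet TRAP as well. Cldn5, the tight junction gene of brain endothelium, was at 268 ± 162 CPM (SD, n = 6) in endfeet TRAP against 0.420 ± 0.333 CPM (SD, n = 3), and all 12 endothelial markers were called higher. Of 12 arterial markers 11 were called higher and 1 lower. The one called lower, Hey1, was at 177 ± 85.6 CPM (SD, n = 6) against 599 ± 8.44 CPM (SD, n = 3) and made up 92.4% of the arterial sum in whole astrocyte TRAP. Per 1000 CPM of the endothelial list, Gja4 was at 8.35 to 26.0 CPM in endfeet TRAP and at 0, 0 and 25.2 CPM in the whole astrocyte libraries. On the same scale Gja5 was at 0 to 44.9 CPM in endfeet TRAP and at 11.2, 13.7 and 37.9 CPM in the whole astrocyte libraries. The groups overlapped for both genes, and the whole astrocyte values rest on few counts of the connexins and on a marker sum of 6.96 to 7.73 CPM. Among endfeet libraries the endothelial sum was lowest in library 1, at 3375 CPM, where Gja4 and Gja5 were highest. Dividing by it raised the coefficient of variation among endfeet libraries from 32.9% to 51.0% for Gja4 and from 83.8% to 102% for Gja5. The part of endothelial RNA in these differences was not tested.

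Gjc1 encodes Cx45, a connexin of smooth muscle cells and pericytes. It was at 1.46, 1.53 and 1.6 CPM in whole astrocyte TRAP, while the endfeet libraries were at 9.01 (lowest), 54.4 (median) and 128 CPM (highest). All endfeet libraries were above all whole astrocyte libraries, although library 1, with 48 counts, was far below the other five. The mean was 61.9 ± 39.3 CPM (SD, n = 6) against 1.53 ± 0.0712 CPM (SD, n = 3), a 40.3-fold difference (log2 fold change 5.33, SE 0.787, 95% confidence interval 3.63 to 7.03, adjusted p = 1.94e-04 in edgeR). Library 1 had the highest levels of Gja4 and Gja5 and the lowest level of Gjc1 among endfeet libraries. The smooth muscle gene Acta2 was at 675 ± 166 CPM (SD, n = 6) against 3.88 ± 0.581 CPM (SD, n = 3), and the pericyte gene Pdgfrb at 197 ± 58.0 CPM (SD, n = 6) against 8.0 ± 0.785 CPM (SD, n = 3). Per 1000 CPM of the 7 smooth muscle markers, Gjc1 was at 6.42 to 74.5 CPM in endfeet TRAP and 34.9 to 46.4 CPM in whole astrocyte TRAP, ranges that overlap. Per 1000 CPM of the 8 pericyte markers Gjc1 was at 3.15 to 22.9 CPM in endfeet TRAP against 37.0 to 44.5 CPM, below in every library. This scale rests largely on a single gene. Rgs5 made up 76.7% of the mean endfeet sum of these 8 markers and 43.7% of the mean whole astrocyte sum. Whether mural RNA accounts for the Gjc1 difference was not tested. The 3 full-length protein-coding transcripts of Gjc1 had nearly the same counts, 4163 to 4189 summed over endfeet libraries, so they cannot be told apart.

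Gjd2 encodes Cx36, which forms the electrical synapses of interneurons. It was at 1.14, 0.873 and 1.01 CPM in whole astrocyte TRAP, from 33 to 46 counts. In endfeet TRAP it was at 0 (lowest), 0.218 (median) and 6.78 CPM (highest), where library 5 alone held 92 of the 110 counts and libraries 1 and 6 had none. Of the endfeet libraries 5 were below all whole astrocyte libraries and library 5 was above them. The log2 fold change was 0.48 (SE 1.43, 95% confidence interval -2.61 to 3.57, adjusted p = 0.824 in edgeR), and it was -1.82 without endfeet library 5. Gjd2 overlaps a gene on the other strand over 57 exonic bases, and strandedness of the counting is not given in the sources used here.

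Levels of different genes were compared per kb of transcript. In whole astrocyte TRAP the order was Gjb6 with 363 ± 39.4 CPM per kb (SD, n = 3), Gja1 with 153 ± 13.7, Gjb2 with 15.1 ± 1.69, Gjc1 with 0.811 ± 0.0377, Gjd2 with 0.349 ± 0.0455, Gja5 with 0.0483 ± 0.0318 and Gja4 with 0.0347 ± 0.0602. Each step was larger than the spread of the libraries except the last, since Gja5 and Gja4 overlapped. In endfeet TRAP the order was Gja1 with 153 ± 67.7 CPM per kb (SD, n = 6), Gjb6 with 133 ± 41.3, Gjb2 with 63.5 ± 33.6, Gjc1 with 32.7 ± 20.8, Gja4 with 31.7 ± 10.4, Gja5 with 19.8 ± 16.6 and Gjd2 with 0.467 ± 0.932. All neighbours in that order overlapped in range. Gja1 was above Gjb6 in 4 of 6 endfeet libraries, and with the length of the longest annotated transcript Gjb6 came first, at 133 against 120.4 CPM per kb for Gja1. With that length Gjc1 was at 18.1 CPM per kb in endfeet TRAP, below Gja4 at 31.7. Gjb6 was above Gjb2, and Gja4 above Gja5, in 6 of 6 libraries.

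The sum over the 7 connexins was 434 ± 115 CPM per kb (SD, n = 6) in endfeet TRAP and 533 ± 50.1 CPM per kb (SD, n = 3) in whole astrocyte TRAP, and the ranges overlapped. Its make-up differed more. Gjb6 was 68.1 ± 1.27% of the sum in whole astrocyte TRAP but 30.5 ± 3.92% in endfeet TRAP, with the highest endfeet share at 36% and the lowest whole astrocyte share at 67.0%. Gja1 was 28.8 ± 0.939% and 34.1 ± 7.85%, with overlapping ranges. Gjb2 was 2.87 ± 0.575% in whole astrocyte TRAP but 14.7 ± 5.74% in endfeet TRAP. The vascular connexins were at most 0.167% each in whole astrocyte TRAP, and Gja4, Gja5 and Gjc1 took 7.66 ± 2.49%, 4.56 ± 3.6% and 8.40 ± 6.39% in endfeet TRAP. Shares of 1 sum depend on each other, and none of them was tested.

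**Figure D5:**
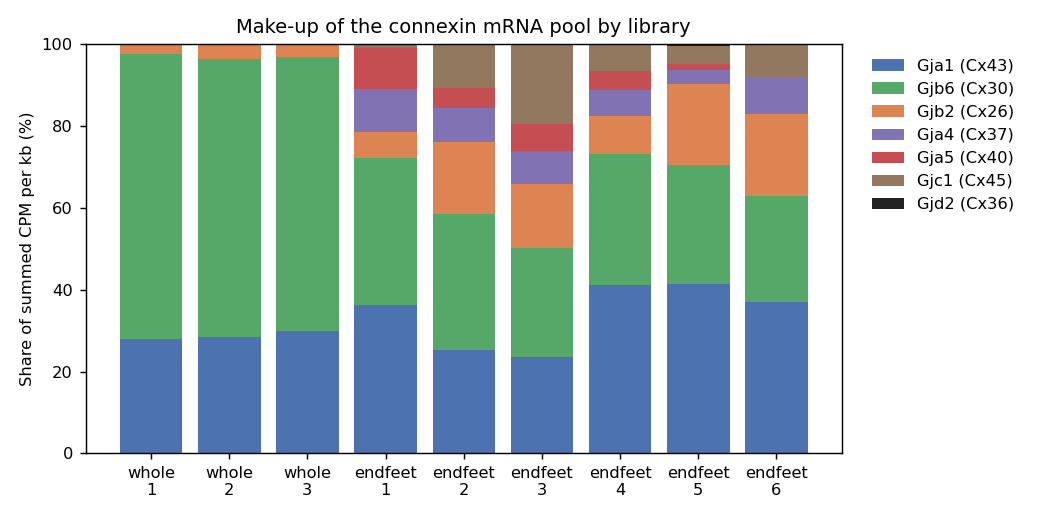
Share of each connexin in the summed CPM per kb of the 7 connexins, in percent, as stacked bars for the 3 whole astrocyte and 6 endfeet libraries. Gjb6 fills 67.0% to 69.5% of the whole astrocyte bars and 26.1% to 36% of the endfeet bars, and the vascular connexins are visible in endfeet bars only.

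The rest of the family was sparse. Of 10 further connexin and 3 pannexin genes, 4 passed the filter (Gjb1, Gjc3, Panx1 and Panx2), and edgeR called 0 of them, also at an unadjusted p under 0.05. DESeq2 called 0 as well and limma voom called 1. Gjc3, a connexin of oligodendrocytes (Cx29), was at 34.2, 35.5 and 28.7 CPM in whole astrocyte TRAP, while the endfeet libraries were at 6.0 (lowest), 19.9 (median) and 26.0 CPM (highest). All its endfeet values were below all its whole astrocyte values, and the log2 fold change was -0.82 (SE 0.494, 95% confidence interval -1.89 to 0.24, adjusted p = 0.216 in edgeR). Gjb1 (Cx32), also a connexin of oligodendrocytes, was at 0.820 to 1.62 CPM in whole astrocyte TRAP and at 0 in 4 of the endfeet libraries. Endfeet library 4 held 112 of the 113 endfeet counts of Gjb1, which is the gene limma voom called lower. Panx1 and Panx2, which form membrane channels without gap junctions, were at 1.16 to 2.95 CPM and 3.55 to 4.17 CPM in whole astrocyte TRAP, while the endfeet libraries were at 0 to 6.04 CPM and 0 to 9.65 CPM.

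Among endfeet libraries, Gja6 was counted in 1 alone. It had 503 counts in endfeet library 1, none in the other five and 19 over the whole astrocyte libraries. Gja6 was named after its values were seen. Gja10, Gjd4 and Panx3 had no count in any library.

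Partners of connexins were taken from a list of 17 genes whose proteins anchor, bind, modify or turn over connexins, and all 17 passed the filter. In edgeR 7 were called higher in endfeet TRAP and 0 lower, beside 20.7% and 13.9% of all genes tested, and the median log2 fold change was 0.41 beside 0.10. The lower direction had 2 genes at an unadjusted p under 0.05, DESeq2 called 1 and limma voom called 4. Cdh5, the cadherin of endothelial junctions, was at 285 ± 36.9 CPM (SD, n = 6) against 1.29 ± 0.812 CPM (SD, n = 3), and its log2 fold change was 7.78 ± 0.491 (SE), with an adjusted p of 2.37e-07 in edgeR. Cav1, the main protein of caveolae, was at 375 ± 100.1 CPM (SD, n = 6) against 12.9 ± 0.925 CPM (SD, n = 3), with a log2 fold change of 4.86. Ccn3, a matricellular protein that binds Cx43, was at 48.4 ± 30.3 CPM (SD, n = 6) against 7.59 ± 0.717 CPM (SD, n = 3), with a log2 fold change of 2.68, and Nedd4, a ubiquitin ligase that takes part in Cx43 turnover, was at 1178 ± 268 CPM (SD, n = 6) against 443 ± 18.4 CPM (SD, n = 3), with a log2 fold change of 1.41. For all 4 the endfeet libraries were above all whole astrocyte libraries. Cdh5 is also on the endothelial list, all members of which were called higher.

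Genes with the most similar profile were sought among 11833 tested genes with a mean of at least 5 CPM, by the smallest root mean square difference of mean-centred log2(CPM + 1) over the 9 libraries. Among the genes closest to Gja1 were Pkn2 and Snap91, with differences of 0.23 and 0.24. Closest to Gjb6 were Lrrc58 (0.16), Bsdc1 (0.20) and Pcnp (0.21), and closest to Gjb2 were Ppp1r13b (0.28), Cd99l2 (0.32) and Dab2 (0.35). Gja4 was nearest to Jag1, a Notch ligand (0.28), Apcdd1 (0.30) and Reck (0.30). Gjc1 was nearest to the transcription factor gene Klf2 (0.27), the pericyte marker Higd1b (0.36) and Gprc5c (0.43). Gja5 had no gene as close, with Slc38a5, on the list of venous and capillary markers, at 0.70, A2m at 0.73 and Cldn1 at 0.96, and Gjd2 was nearest to Aaas (0.32), Wscd1 (0.43) and Bin3 (0.43). The measure ranks genes by shape over libraries that share their depth and make-up, and it was used as a description with no test.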

How the data were processed

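The authors sequenced amplified polysomal RNA, mapped it to mm10 using Bowtie, discarded multiply mapped reads and took HTSeq counts over Ensembl transcripts (version 0.5.3 in the submitters' processing notes). The deposited values are raw counts per transcript from the authors, without normalization. Because multiply mapped reads were discarded, reads shared by near-identical genes were lost. A read counted on each transcript it overlaps, so transcripts of a gene repeat reads.

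Of 75466 transcripts, 73164 were matched to GENCODE M21 of the same build, giving 22092 genes, and for a gene the transcript with the largest sum of CPM over the libraries was used. The 6 endfeet and 3 whole astrocyte libraries were compared with edgeR 4.0.16 in R 4.3.3 (TMM, filterByExpr, quasi-likelihood test), and p-values were adjusted by Benjamini-Hochberg over 14427 genes, at a threshold of 0.05. A standard error is the size of a log2 fold change over the root of its F statistic. Whether pools of vessels shared mice or days is not given in the sources used here, and p-values measure the spread between these libraries. For ratios, group labels were permuted exactly (84 ways, two-sided). The members and lists were chosen with earlier results of these data known.

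Named genes are the 7 connexins, further connexins and pannexins that passed the filter, up to 4 called partner genes per direction by size, the reference genes Cldn5, Pdgfrb, Acta2, Dcn, Aqp4 and Slc1a2, and 3 genes of like profile for each connexin, and some genes that meet these rules are not reported here. Hey1, Glul, Aldoc, Ly6c1, Rgs5, Ptgds, Ttr, Otx2, Ccdc153, Gja6 and the genes with no count were named after their values were seen. Alternatives were DESeq2 1.42.0, limma 3.58.1 (voom with group weights), DESeq2 size factors, other filters, counts summed over transcripts, the number series of the libraries, a replicate block and leaving out each library. Whether same-numbered libraries deviate together was checked over genes (correlations -0.04, 0.02 and 0.04), and the numbers were not taken as pairs. The test was tested on simulated data with 1 dispersion per gene, which the unequal spread of these groups does not meet. Motifs and sequences come from RefSeq promoters, and tables were handled in Python 3.11.15.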

Additional observations from a re-analysis of the deposited data

Results flagged for a closer look

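Among 13 groups of 6 endfeet libraries examined on the log2(CPM + 1) scale, 2 had a library far from the others by Dixon's criterion of 0.625, and chance flags about 1 in 20 groups. Gja5 in endfeet library 6 was the lowest, with a gap of 0.651 of the whole range, and had 0 counts in the library with the smallest total. Gjd2 in endfeet library 5 was the highest, with a gap of 0.699 of the whole range, and held 92 counts.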

How the results depend on the processing

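The calls of Gjb6, Gjb2 and Gjc1 held under all 18 alternatives, and those of Gja4 and Gja5 under the 17 and 16 in which they could be fitted. The exception in the counts was the requirement of 10 counts in every library, which left 2 connexins called higher because Gja4 and Gja5 were removed, and Gja5 was also removed in the series of later numbers. Leaving out a library gave 4 higher and 1 lower connexin each time.

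Over all genes, limma voom called 4485 lower in place of 2006. Leaving out a library gave 1874 to 3380 genes higher and 1171 to 2642 lower, with the lowest counts without a whole astrocyte library (1959, 1874 and 1943 higher and 1171, 1197 and 1217 lower without library 1, 2 and 3). Of the further connexins and pannexins, 1 was lower by limma voom, 1 without a filter, and 0 to 1 with a library left out, the 1 being without endfeet library 4. Of the partners, 1 was lower by DESeq2, 4 by limma voom, 2 with 10 counts in every library, 1 in the later series, and 0 to 2 with a library left out (2 without endfeet library 5 and 1 without endfeet library 6). Of the alternatives run on the ratios, only the later series of library numbers took them past the threshold, with log2 differences of -1.71 (Gjb6 to Gja1), 1.98 (Gjb2 to Gja1), 3.69 (Gjb2 to Gjb6), -1.26 (Gja1 to Aqp4), -1.01 (Gja1 to Slc1a2) and -2.72 (Gjb6 to Slc1a2), each with an exact permutation p of 0.1, the smallest possible. With the longest transcript as length, whole astrocyte levels were 121 CPM per kb for Gja1 and 0.449 for Gjc1, and the endfeet level of Gjc1 was 18.1 in place of 32.7.

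Of the uncalled connexins and pannexins named, Gjc3 was below 0 under all 18 alternatives, and the other five changed sign under at least 1. Gja1 was at 0.01 with DESeq2 and with its size factors (0.0111 and 0.0095), 0.29 with the number series as covariate, 0.15 in the later series and -0.35 to 0.16 with a library left out. With limma voom the values were -1.04 for Gjd2, -2.82 for Gjb1 (adjusted p = 0.0336) and -0.42 for Panx1. With a library left out the ranges were -1.82 to 0.78 for Gjd2, -5.61 to 0.54 for Gjb1 (adjusted p = 0.00512 in edgeR without endfeet library 4), -0.14 to 0.61 for Panx1 and -0.82 to 0.062 for Panx2. The cause was not tested.

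The numbers shared by libraries do not pair them. With the replicate number as a block, 4 connexins were higher and 1 lower as before, all genes gave 2501 higher and 1958 lower, and Gjd2 was at -2.16, Gjb1 at -4.98 and Panx1 at -0.086. Few counts stand behind Gja4 and Gja5 in whole astrocyte TRAP (8 and 19) and behind Gjd2 in endfeet TRAP (110), which limits the precision of their fold changes.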
